A study of Mus musculus with 10 samples.

Results

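The inwardly rectifying potassium (Kir) channels were followed here through 9 of their genes, Kcnj2, Kcnj3, Kcnj4, Kcnj6, Kcnj8, Kcnj9, Kcnj10, Kcnj11 and Kcnj16, chosen by symbol from the 33502 genes counted. The same table held 6 further Kcnj genes (Kcnj1, Kcnj5, Kcnj12, Kcnj13, Kcnj14 and Kcnj15), which were kept for comparison. The values came from single-nucleus RNA sequencing of tissue punches around the paraventricular nucleus of the thalamus (PVT) of C57BL/6J mice aged 12 weeks. No treatment or transgene was named in the labels. The methods describe 4 biological replicates, each pooled from 4 mice, and do not state the pooling of the other libraries. Of the 10 libraries, 6 were labelled female (F1 to F6), and the labels of the other 4 gave no sex, although the deposited table of nuclei marked all of their nuclei as male (M1 to M4). The deposited cell type names gave 10410 neurons, 5302 astrocytes, 2462 oligodendrocytes, 993 microglia, 473 oligodendrocyte precursor cells (OPCs), 469 ependymal cells, 215 endothelial cells and 179 fibroblasts, 20503 nuclei in all.

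A Kir channel is a tetramer of subunits that passes potassium more easily into the cell than out of it, and so holds the membrane near the potassium equilibrium. Kcnj3, Kcnj6 and Kcnj9 encode the G protein-gated subunits GIRK1, GIRK2 and GIRK3, which open when receptors such as GABA-B release G protein beta-gamma subunits and which slow neuronal firing. Kcnj10 encodes Kir4.1, the channel with which astrocytes take up potassium released by active neurons, and Kcnj16 encodes Kir5.1, a partner subunit of Kir4.1. Kcnj8 (Kir6.1) and Kcnj11 (Kir6.2) form the pore of ATP-sensitive potassium (KATP) channels together with the sulfonylurea receptors encoded by Abcc9 and Abcc8. Kcnj2 (Kir2.1) and Kcnj4 (Kir2.3) encode classical, constitutively open inward rectifiers.

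The libraries held 875 to 7213 nuclei each, with 5119927 to 12891409 unique molecular identifiers (UMIs, 1 per captured RNA molecule) in the female set and 7568267 to 55956635 in the other set. Neurons were the deepest class, with a median of 11157 UMIs per nucleus against 1756 to 3658 in the other 7 types. The 2 sets of libraries differed in the sex given and in depth, and 13 mitochondrial genes had 0 UMIs in M1 to M4 and 562659 in F1 to F6. Whether this last difference comes from the annotation or from removal of these genes was not tested. The deposited percentage of mitochondrial UMIs was still above 1% in some nuclei of M1 to M4. Barcodes shared with another library were found in 92 nuclei. The 6 neuron markers examined (Rbfox3, Snap25, Syt1, Snhg11, Grin1 and Stmn2) were not absent from any other class, and their summed level there averaged 5.31% to 20.7% of that in neurons. Cell types are deposited clusters of the same nuclei, so a test between them describes those classes and not a treatment. Any gene, the members included, could enter the definition of these clusters. The p-values between cell types do not allow for this and are descriptive.

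The members lie on 7 chromosomes (1, 2, 6, 7, 11, 15 and 16) of the mm10 (GRCm38) build, and some are neighbours. Kcnj9 (chromosome 1, 172320501 to 172329318, minus strand) and Kcnj10 (chromosome 1, 172341210 to 172374085, plus strand) point away from each other across 11.9 kb, Kcnj16 and Kcnj2 lie 38.2 kb apart on chromosome 11, and Kcnj8 and Kcnj11 lie 16.2 kb and 3.76 kb from their partner genes Abcc9 and Abcc8, with no protein-coding gene between any of these pairs. The 250 bases before the start of 8 members were found among 32851 RefSeq promoter windows (GRCm38.p6), while Kcnj11 had no window. The windows of the 3 GIRK genes and of the astrocyte pair are shown because these genes carry the main patterns of the data. Capitals mark matches, on either strand, to 3 short promoter motifs. A match was counted anywhere in the 250 bases, whatever its distance from the start, so it need not be a working element. These were the TATA box (TATAAA, found in 12.4% of all windows), the CCAAT box (33.8%) and the GC box (GGGCGG, 32.7%), and no matches overlap in the windows shown.
Kcnj3, chr2:55435720-55435969, plus strand: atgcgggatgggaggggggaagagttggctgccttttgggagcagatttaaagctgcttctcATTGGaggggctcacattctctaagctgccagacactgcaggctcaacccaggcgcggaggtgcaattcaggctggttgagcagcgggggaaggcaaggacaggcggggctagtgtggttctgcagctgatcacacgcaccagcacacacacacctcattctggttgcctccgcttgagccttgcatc
Kcnj6, chr16:94997697-94997946, minus strand: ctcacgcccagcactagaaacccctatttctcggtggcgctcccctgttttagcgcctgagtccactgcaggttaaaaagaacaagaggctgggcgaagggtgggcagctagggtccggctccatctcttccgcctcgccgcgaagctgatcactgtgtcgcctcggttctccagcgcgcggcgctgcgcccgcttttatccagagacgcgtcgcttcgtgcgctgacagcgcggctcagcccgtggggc
Kcnj9, chr1:172329323-172329572, minus strand: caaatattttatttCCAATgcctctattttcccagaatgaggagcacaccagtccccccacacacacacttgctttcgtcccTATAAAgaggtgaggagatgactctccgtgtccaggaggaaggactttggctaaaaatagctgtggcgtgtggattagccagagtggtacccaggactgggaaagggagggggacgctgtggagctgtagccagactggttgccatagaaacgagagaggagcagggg
Kcnj10, chr1:172340960-172341209, plus strand: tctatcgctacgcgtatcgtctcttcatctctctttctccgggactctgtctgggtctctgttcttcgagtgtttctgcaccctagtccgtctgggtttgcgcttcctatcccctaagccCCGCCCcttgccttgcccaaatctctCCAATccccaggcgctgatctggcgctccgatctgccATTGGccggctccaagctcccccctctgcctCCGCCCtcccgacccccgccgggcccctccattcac
Kcnj16, chr11:110967783-110968032, plus strand: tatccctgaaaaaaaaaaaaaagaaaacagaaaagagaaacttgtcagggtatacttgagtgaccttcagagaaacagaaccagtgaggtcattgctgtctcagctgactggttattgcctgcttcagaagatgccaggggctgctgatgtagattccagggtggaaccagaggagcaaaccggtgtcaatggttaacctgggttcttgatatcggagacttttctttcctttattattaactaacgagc
The windows differed in composition. Kcnj6 held 26 CpG dinucleotides, Kcnj10 held 17, Kcnj3 held 7, Kcnj9 held 5 and Kcnj16 held 3, against a median of 6 over all windows. Among these windows a match to the TATA motif was found in that of Kcnj9 alone. Matches to the CCAAT motif were found in those of Kcnj3, Kcnj9 and Kcnj10, and to the GC motif in that of Kcnj10 alone. Kcnj6 and Kcnj16 have further RefSeq starts whose windows are not shown.

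To ask in which cells each member is transcribed, UMIs were summed per library and cell type and scaled with TMM factors to CPM (the UMIs of a gene over all UMIs of the sum, scaled to a common depth; hereafter the level). Levels are compared between cell types for 1 gene, not between genes, because transcript length was not corrected. Differences are log2 fold changes with their standard error (SE) from 1 edgeR quasi-likelihood fit over all genes with library as a block, and a call required a log2 fold change above 0.5 or below -0.5 as well as an adjusted p below 0.05. In this fit 6 of the 9 members passed the filter on low counts, and values for Kcnj2, Kcnj4 and Kcnj11 come from the same fit without the filter. Sums over nuclei were tested, so fewer expressing cells and less RNA per cell cannot be told apart.

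**Figure D1:**
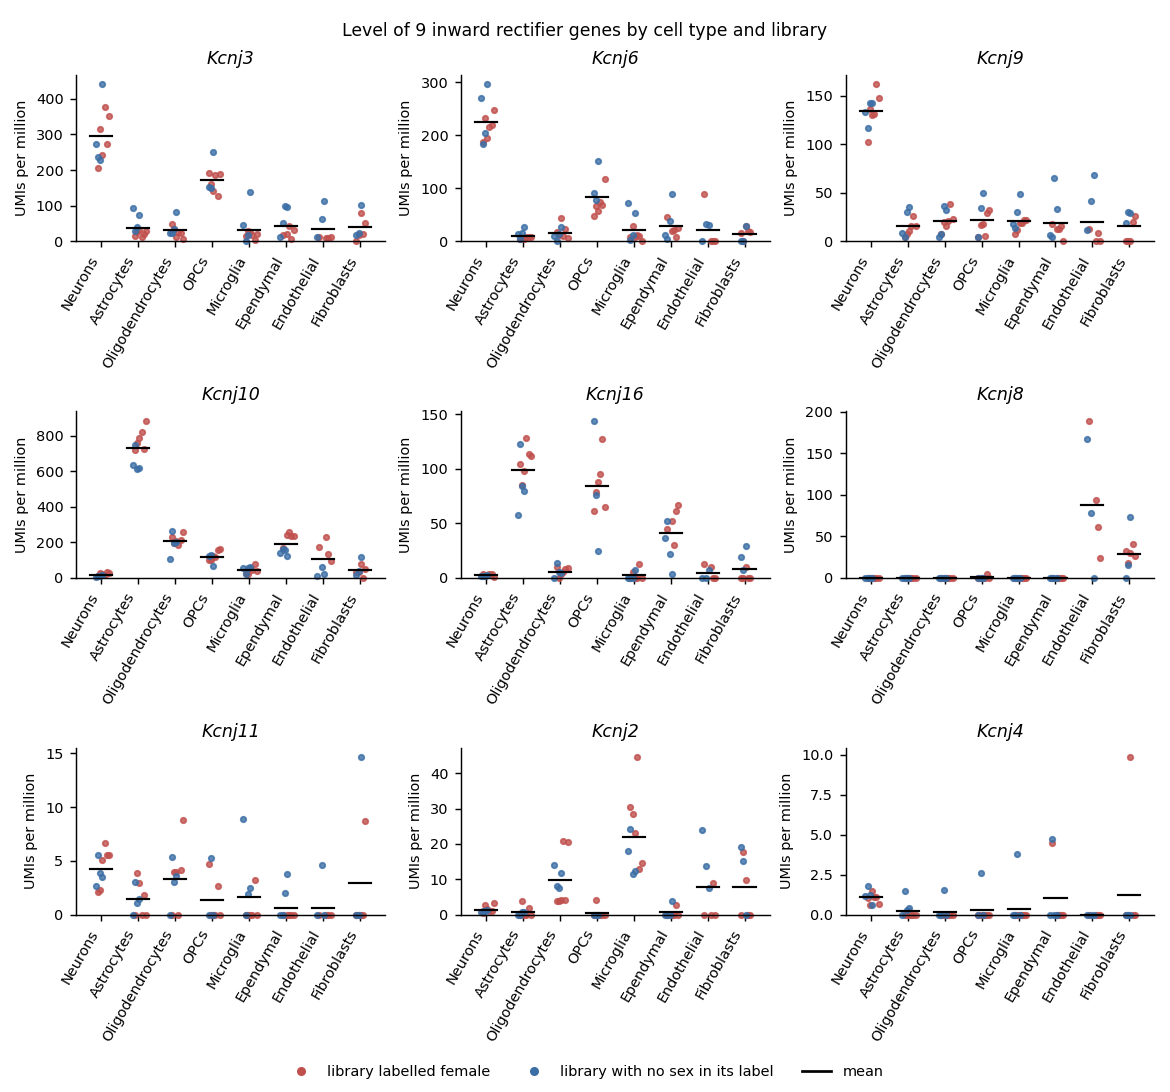
Level (CPM, TMM-scaled) of each of the 9 members in 8 cell types, with 1 point per library (red, labelled female; blue, no sex in the label) and a line at the mean. Kcnj3, Kcnj6 and Kcnj9 are highest in neurons, Kcnj10 in astrocytes, Kcnj16 in astrocytes and OPCs, Kcnj8 in endothelial cells and Kcnj2 in microglia.

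The GIRK subunit genes were highest in neurons, and 2 of them, Kcnj3 and Kcnj6, were also high in OPCs. Against the mean of astrocytes, oligodendrocytes, OPCs and microglia, neurons had higher Kcnj3 (5.32-fold, log2 2.41, SE 0.15, adjusted p = 9.76e-24), Kcnj6 (8.98-fold, log2 3.17, SE 0.15, adjusted p = 6.58e-31) and Kcnj9 (6.48-fold, log2 2.70, SE 0.13, adjusted p = 1.5e-29). Kcnj10 and Kcnj16 were lower in neurons by 3.49 (SE 0.17) and 3.22 (SE 0.29) on the log2 scale (adjusted p = 4.29e-30 and 2.88e-16). Thus 3 members were called higher and 2 lower in neurons, in a fit in which 33.3% of all genes were called higher and 25.1% lower. These 5 calls were also made with DESeq2-type (RLE) scaling and with DESeq2, although these scalings moved the median of all genes in this comparison by -0.135 and -0.166 and the share of higher genes among those called from 57.0% to 49.4% and 47.0%. Among the members that did not pass the filter, Kcnj11 (log2 1.12, SE 0.27, adjusted p = 1.66e-04) and Kcnj4 (log2 1.26, SE 0.45, adjusted p = 0.0191) were called higher in neurons, where 33.7% of all unfiltered genes were, and Kcnj2 was not called (log2 -1.10, SE 0.54, adjusted p = 0.0946).

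Kcnj3 (chromosome 2, 55435970 to 55598145, plus strand) encodes GIRK1, the subunit that gives heteromeric GIRK channels their large currents. Its level in neurons was 294 ± 75.8 (SD, n = 10), from 204 in F1 to a median of 274 and 441 in M4. In OPCs it was 172 ± 37.4 (SD, n = 9), from 127 in F5 to a median of 161 and 252 in M4. All neuron libraries were above every library of the 6 types other than OPCs, whose means lay between 31.3 and 42.1. OPCs were in turn above every library of astrocytes, oligodendrocytes, ependymal cells, endothelial cells and fibroblasts, and above the microglia of the same library in 9 of 9. Kcnj3 was higher in OPCs than in the mean of the other 7 types (log2 1.88, SE 0.21, adjusted p = 7.05e-12), and higher in OPCs than in astrocytes (log2 2.42, SE 0.26, adjusted p = 6.97e-13, where 38.3% of all genes were called in 1 direction or the other) and oligodendrocytes (log2 2.50, SE 0.28, adjusted p = 4.78e-12, 41.8%).

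Whether Kcnj3 differs between neurons and OPCs depended on the scaling. At the levels given here, TMM-scaled without the filter on low counts, neurons were higher in each of 9 libraries. Without scaling, OPCs stood at 64.0% to 126% of neurons of the same library, so this order did not hold in every library. The fitted difference was 0.55 (SE 0.22, adjusted p = 0.0263), in a comparison where 50.5% of all genes were called. With RLE scaling it was 0.36 (adjusted p = 0.16) and with DESeq2 0.34 (adjusted p = 0.337), and the call was also lost when F2, F3, F4, F5 or M3 was left out (adjusted p = 0.0669 to 0.14). The share of nuclei with at least 1 Kcnj3 UMI, after every nucleus was thinned to 1000 UMIs, was 16.5% ± 3.08 in neurons and 14.6% ± 3.74 in OPCs, against 2.18% to 3.29% in the other 6 types. Before thinning these shares were 66.5% in neurons and 41.3% in OPCs, at median depths of 11157 and 3658 UMIs.

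Kcnj6 (chromosome 16, 94748636 to 94997701, minus strand) encodes GIRK2, the subunit that can form channels by itself. Its level in neurons was 225 ± 36.8 (SD, n = 10), from 184 in M2 to a median of 218 and 297 in M4. In OPCs it was 83.2 ± 32.4 (SD, n = 9), from 47.0 in F1 to a median of 73.3 and 151 in M4, so that neurons and OPCs did not overlap. The difference between them was 1.27 (SE 0.22, adjusted p = 1.03e-06), and it was called under RLE scaling (1.07) and DESeq2 (1.02) as well. It was not called in M1 to M4 alone (0.93, adjusted p = 0.0562) or with nuclei of at most 1% mitochondrial UMIs (0.78, adjusted p = 0.29). Kcnj6 in OPCs exceeded the mean of the other 7 types by 1.75 (SE 0.25, adjusted p = 7.88e-09). Astrocytes had the lowest mean, 10.1 ± 7.30 (SD, n = 10).

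Kcnj9 (GIRK3, a subunit known to steer channels toward lysosomes) was measured at 134.8 ± 16.4 in neurons (SD, n = 10), from 103 in F1 to a median of 134.9 and 162 in F5. Its means in the 7 other types lay between 15.6 and 21.7, and no library of any of them reached the lowest neuron library. In contrast to Kcnj3 and Kcnj6, Kcnj9 was not called in OPCs (log2 -0.29, SE 0.29, adjusted p = 0.473), and OPCs did not differ from astrocytes beyond their spread (0.42, SE 0.32, adjusted p = 0.31). In OPCs therefore 2 of the 3 GIRK genes, together with Kcnj16, were called higher, where 20.1% of all genes were. The neighbours in the order of cell types below OPCs were not separated for Kcnj3, Kcnj6 or Kcnj9. Of these genes, Kcnj3 overlaps Gm26794 on the other strand, Kcnj6 overlaps Gm41505 and Gm22745, and Kcnj9 overlaps Gm36937, so reads in the shared stretches are uncertain if strand was not used in counting.

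**Figure D2:**
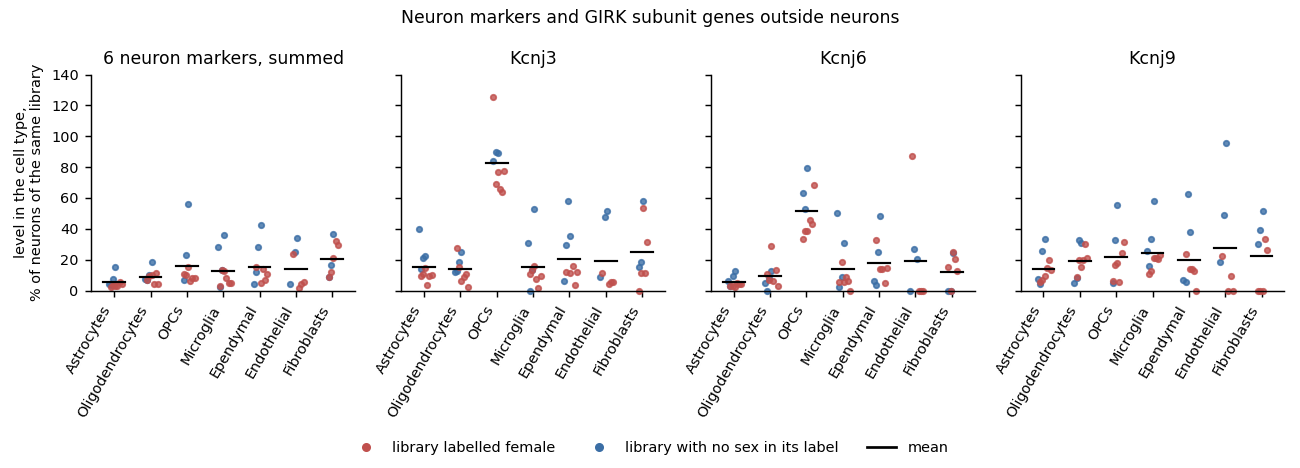
Level of 6 neuron markers (summed), Kcnj3, Kcnj6 and Kcnj9 in each other cell type, as a percentage of neurons of the same library (unscaled CPM), with 1 point per library and a line at the mean. In OPCs the means are 16.03% for the markers, 82.5% for Kcnj3, 51.4% for Kcnj6 and 21.7% for Kcnj9.

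UMIs of the neuron markers were found in all other classes, so the GIRK levels there were set beside them. Whether these UMIs are RNA from neurons or from the cells themselves was not tested. In OPCs the 6 markers averaged 16.03% of the neuron level of the same library (6.26% to 56.1%), while Kcnj3 averaged 82.5% (64.0% to 126%) and Kcnj6 51.4% (33.4% to 79.4%), each above the markers in 9 of 9 libraries. Kcnj9 averaged 21.7% and was above the markers in 5 of 9. Among the 51 OPCs with no UMI of any of the 6 markers, Kcnj3 remained at 207 CPM over all libraries together (25 UMIs in 15 nuclei, exact Poisson 95% interval 134 to 305, counting error only), Kcnj6 stood at 41.3 (5 UMIs, 13.4 to 96.4) and Kcnj9 at 8.26 (1 UMI). The same selection left Kcnj3 at 23.9 CPM in 1001 astrocytes, 22.5 in 454 oligodendrocytes and 7.25 in 224 microglia.

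In astrocytes the markers averaged 5.31% of the neuron level, Kcnj6 5.27%, Kcnj3 15.5% and Kcnj9 14.0%, and Kcnj3 and Kcnj9 were above the markers in 10 of 10 libraries. In microglia the markers averaged 12.7% and the 3 genes 13.7% to 24.1%. In oligodendrocytes the markers averaged 8.85% and the 3 genes 9.47% to 19.2%. The part that RNA from neurons plays in these low levels was not tested. Relative to the mean of the other 7 types, Kcnj3, Kcnj6 and Kcnj9 were called lower in astrocytes (log2 -0.88, -1.67 and -0.77), where 19.7% of all genes were lower, and Kcnj3 and Kcnj6 were called lower in oligodendrocytes (log2 -0.97 and -1.03; 26.2% of all genes) and microglia (log2 -1.002 and -0.72; 29% of all genes). The Kcnj6 call in microglia (adjusted p = 0.0451) was lost under 11 of 19 alternatives, among them the omission of any of F1, F3, F4, F5, F6, M2 or M3. With nuclei of at most 1% mitochondrial UMIs the Kcnj6 difference changed direction in both oligodendrocytes (0.12) and microglia (0.63). Within M1 to M4 alone the Kcnj3 calls in astrocytes (-0.62) and microglia (-0.69) were lost, and within F1 to F6 alone those of Kcnj3 (-0.55) and Kcnj6 (-0.41) in oligodendrocytes and of Kcnj9 in astrocytes (-0.38).

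A list of 20 genes of the GIRK pathway (GABA-B receptors, G protein subunits, RGS proteins and KCTD auxiliary subunits among them) was called higher in neurons more often than lower. Of the 19 tested, 10 were called higher and 2 lower in neurons than in glia, where 33.3% and 25.1% of all genes were. The median log2 fold change was 0.56 against 0.10 over all genes. The largest differences were those of Kctd8 (3.11, SE 0.16) and Kctd16 (3.08, SE 0.16), which encode auxiliary subunits of GABA-B receptors, and the smallest those of Gnai2 (-2.13, SE 0.12), a Gi alpha subunit, and Kctd12 (-1.35, SE 0.26), another gene of the same family. With RLE scaling the count was 9 higher and 3 lower.

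Kcnj10 and Kcnj16 were the glial members. Against the mean of the other 7 types, astrocytes had 8.79-fold more Kcnj10 (log2 3.14, SE 0.12, adjusted p = 5.11e-37) and 9.89-fold more Kcnj16 (log2 3.31, SE 0.16, adjusted p = 1.85e-30), in a comparison where 21.5% of all genes were called higher. Oligodendrocytes and ependymal cells carried the next levels of Kcnj10, whereas Kcnj16 in OPCs was not separated from that in astrocytes.

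The level of Kcnj10 in astrocytes was 731 ± 88.9 (SD, n = 10), from 614 in M3 to a median of 736 and 885 in F6, and every astrocyte library was above every library of all other types. It was 206 ± 43.4 in oligodendrocytes (SD, n = 10; 107 in M1 to 262 in M2), 192 ± 50.4 in ependymal cells (SD, n = 9; 123 to 257) and 120.3 ± 29.4 in OPCs (SD, n = 9; 69.2 to 162). Neurons had the lowest mean, 17.8 ± 8.22 (SD, n = 10; 5.49 to 31.4). In the order of means, astrocytes exceeded oligodendrocytes by 1.73 (SE 0.17, adjusted p = 1.54e-14), ependymal cells exceeded OPCs by 0.76 (SE 0.22, adjusted p = 0.0023), and microglia exceeded neurons by 1.69 (SE 0.23, adjusted p = 1.24e-09). These 3 comparisons called 46%, 50.2% and 65.6% of all genes. The other neighbours did not differ beyond their spread, namely oligodendrocytes and ependymal cells (0.07), OPCs and endothelial cells (0.19), endothelial cells and fibroblasts (1.00, adjusted p = 0.0646, called by DESeq2 at 0.0368) and fibroblasts and microglia (0.08).

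Kcnj10 was called higher than the mean of the other types in oligodendrocytes (log2 1.16, SE 0.14, adjusted p = 4.43e-11; 20.5% of all genes were higher) and in ependymal cells (log2 1.07, SE 0.16, adjusted p = 2.7e-08; 26.7%). It was called lower in microglia (log2 -1.24, SE 0.20, adjusted p = 1.26e-07) and fibroblasts (log2 -1.15, SE 0.31, adjusted p = 0.00398; 11.5% of all genes were lower), the latter not within M1 to M4 alone (-0.56). The astrocyte markers (Agt, A2m, Aqp4, Slc1a3, Gja1 and Aldh1l1) stood beside these values. In oligodendrocytes they averaged 5.16% of the astrocyte level of the same library and Kcnj10 29.9% (20.03% to 36.2%), above the markers in 10 of 10 libraries, and among 1386 oligodendrocytes with no UMI of any of these markers Kcnj10 was 172 CPM (158 to 186, exact Poisson 95% interval). In ependymal cells the markers averaged 10.2% and Kcnj10 30.1%, above them in 9 of 9. In neurons the markers averaged 0.799% and Kcnj10 1.98%, and in microglia 7.01% and 8.37%, with Kcnj10 above the markers in 5 of 10.

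The level of Kcnj16 (chromosome 11, 110968033 to 111027968, plus strand) was 98.8 ± 22.1 in astrocytes (SD, n = 10), from 57.5 in M1 to a median of 101 and 129 in F4. In OPCs it was 84.6 ± 35.6 (SD, n = 9), from 25.2 in M4 to a median of 78.7 and 144 in M2. The distributions overlapped and the fitted difference was 0.15 (SE 0.18, adjusted p = 0.579), between 0.07 and 0.44 under all alternatives tried. Ependymal cells followed at 41.2 ± 20.2 (SD, n = 9), from 3.74 in M4 to 66.9 in F6, lower than OPCs by 1.07 (SE 0.25, adjusted p = 1.66e-04). All other types averaged between 2.39 and 8.23. Against the mean of the other 7 types Kcnj16 was called higher in ependymal cells (log2 1.92, SE 0.27, adjusted p = 3.59e-09) and lower in microglia (log2 -1.95, SE 0.47, adjusted p = 2.4e-04) and oligodendrocytes (log2 -1.10, SE 0.35, adjusted p = 0.005). The call in oligodendrocytes was lost without M4 (-0.81), in F1 to F6 alone (-0.93), in M1 to M4 alone (-1.13), with at least 20 nuclei per sum (-0.97) and with nuclei of at most 1% mitochondrial UMIs (-0.57).

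Kcnj16 in OPCs exceeded the mean of the other 7 types by 3.14 (SE 0.22, adjusted p = 4.22e-21). After thinning to 1000 UMIs, 8.45% ± 3.44 of OPCs and 7.99% ± 2.25 of astrocytes had a Kcnj16 UMI, against 0.495% of oligodendrocytes, 0.243% of microglia and 0.182% of neurons. Before thinning 28.9% of OPCs had one, at a median of 3658 UMIs. The astrocyte markers in OPCs averaged 5.76% of the astrocyte level and Kcnj16 90.5% (36.7% to 129%), above the markers in 9 of 9 libraries. Among 196 OPCs with no UMI of these markers Kcnj16 was 111 CPM (86.7 to 140.5). In ependymal cells Kcnj16 averaged 47.3% and was above the markers in 8 of 9 libraries, but 132 ependymal nuclei without marker UMIs held only 2 Kcnj16 UMIs (7.41 CPM).

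**Figure D3:**
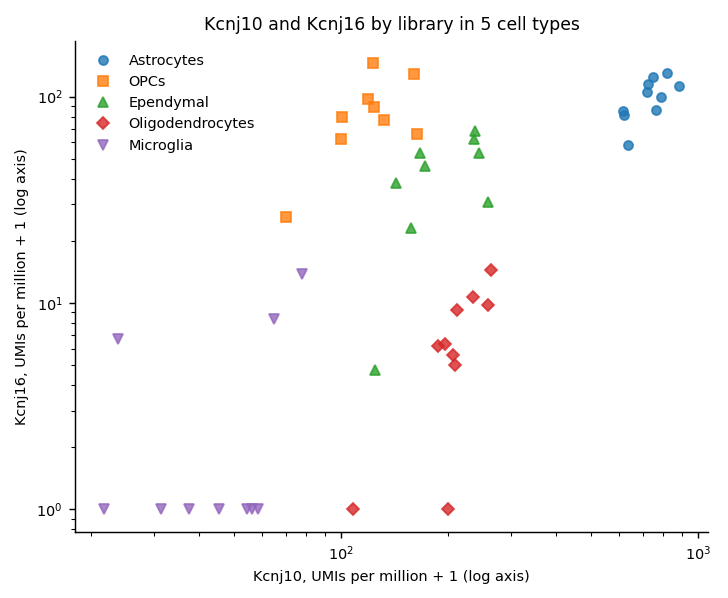
Kcnj10 (x axis) against Kcnj16 (y axis), both as CPM plus 1 on log axes, with 1 point per library and cell type. Astrocytes lie at the upper right, OPCs at similar Kcnj16 but lower Kcnj10, and oligodendrocytes at intermediate Kcnj10 with little Kcnj16.

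The balance of the pair differed between glial types. The log2 ratio of Kcnj10 to Kcnj16 (1 CPM added to each) was 2.90 ± 0.257 in astrocytes (SD, n = 10), 2.44 ± 0.974 in ependymal cells (n = 9), 0.60 ± 0.522 in OPCs (n = 9) and 5.27 ± 1.09 in oligodendrocytes (n = 10). Within libraries astrocytes exceeded OPCs by 2.24 ± 0.459 in 9 of 9 (two-sided exact sign-flip permutation p = 0.00391, the smallest possible, 0.00586 after Benjamini-Hochberg adjustment over 6 pairs of types). Oligodendrocytes exceeded astrocytes in 10 of 10, by 2.37 on average (exact permutation p = 0.00195, adjusted 0.00586). Astrocytes and ependymal cells differed by 0.44 ± 1.01, which the test did not separate (exact permutation p = 0.23).

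All 12 genes of a list for astrocyte potassium and water handling were called higher in astrocytes, where 21.5% of all genes were. Their median log2 fold change was 3.44 against -0.00 over all genes. The list was chosen for astrocyte function, and Aqp4, Slc1a3 and Gja1 are also among the astrocyte markers above. The count therefore describes the class and is no independent result. The largest were Slc4a4 (4.87), a sodium bicarbonate cotransporter, and the gap junction genes Gjb6 (4.80) and Gja1 (4.49). Among the 2 deposited astrocyte clusters, which were drawn from the same nuclei and are described without a test, Kcnj10 averaged 581 ± 60.03 in the first (n = 10) and 746 ± 120 in the second (n = 9), and Kcnj16 80.4 and 99.3.

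Of the KATP pore genes, Kcnj8 was vascular. Its level was 87.8 ± 69.9 in endothelial cells (SD, n = 7), with 0 in M4, 23.8 in F6, 62.0 in F5, 77.8 in M3, 93.8 in F4, 167 in M1 and 189.5 in F1. In fibroblasts it was 29.4 ± 21.7 (SD, n = 8), from 0 in M2 to a median of 27.8 and 73.2 in M4. Oligodendrocytes, microglia and ependymal cells had 0 UMIs in all libraries, and neurons, astrocytes and OPCs together had 11. The spread in endothelial cells was wide, and 1 of the 7 libraries had none.

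Against the mean of the other types Kcnj8 was called higher in endothelial cells (log2 7.82, SE 0.47, adjusted p = 1.86e-18; 17.4% of all genes were higher) and fibroblasts (log2 6.46, SE 0.70, adjusted p = 3.47e-10; 10.7%). Kcnj8 could pass the filter on low counts only through its endothelial and fibroblast sums, the classes where it is high. Its adjusted p-values and the shares of genes beside them are therefore descriptive and no independent support. The folds are set partly by the prior count, so bounds are given. All endothelial nuclei together held 82 Kcnj8 UMIs, or 113 CPM (89.5 to 140, exact Poisson 95% interval), which is at least 260.3-fold the level that 3 counts would give in oligodendrocytes, at least 102-fold in microglia and at least 87.9-fold in ependymal cells. Endothelial cells and fibroblasts did not differ beyond their spread (log2 1.19, SE 0.56, adjusted p = 0.129).

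**Figure D4:**
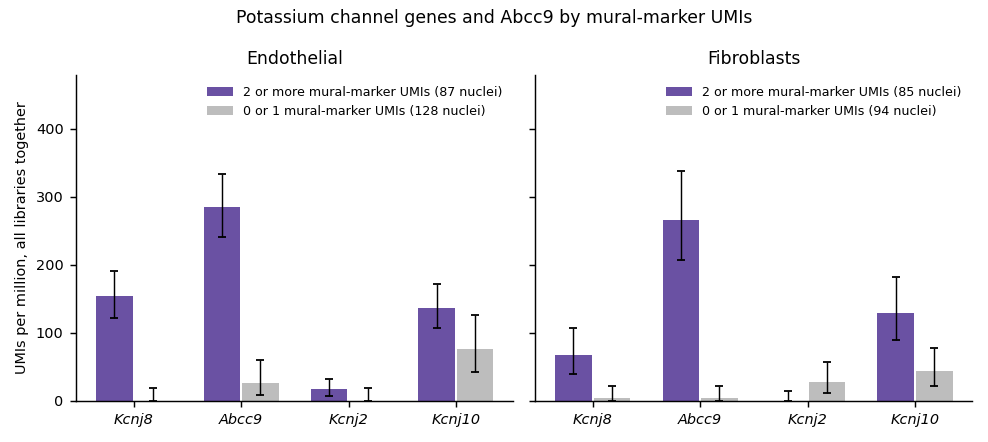
CPM (all libraries together) of Kcnj8, Abcc9, Kcnj2 and Kcnj10 in endothelial nuclei (left) and fibroblasts (right), split by whether a nucleus held 2 or more UMIs of 7 mural markers (purple) or 0 or 1 (grey). Bars start at 0 and error bars are exact Poisson 95% intervals; Kcnj8 is 154 in the 87 purple endothelial nuclei and 0 in the 128 grey ones.

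Mural cells (pericytes and smooth muscle) had no class of their own, so endothelial nuclei were split by the summed UMIs of 7 mural markers (Pdgfrb, Rgs5, Vtn, Higd1b, Notch3, Acta2 and Cspg4, without Abcc9). The 87 nuclei with 2 or more such UMIs held all 82 Kcnj8 UMIs, in 24 nuclei, and the other 128 held 0. Abcc9, which encodes the SUR2 partner of Kir6.1, was split in the same way, with 152 against 5 UMIs. Both sets of nuclei carried the endothelial markers Flt1 (4867 and 4178 CPM) and Cldn5 (2052 and 1645 CPM). Their depths differed, with medians of 5287 and 1180.5 UMIs per nucleus, and the part of depth was not tested. Kcnj10, for comparison, gave 73 and 15 UMIs (137 and 76.9 CPM). Among fibroblasts, where the medians were 2104 and 2038 UMIs, 85 nuclei with 2 or more mural UMIs held 17 Kcnj8 and 68 Abcc9 UMIs, and the other 94 held 1 of each. In M4, which had no endothelial Kcnj8, 6 endothelial nuclei had 2 or more mural UMIs and 58 had fewer, against 10 and 8 in F1. M2 had none either, in 3 and 3 endothelial nuclei, too few to give a sum.

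Kcnj11 was sparse. Its level in neurons was 4.28 ± 1.60 (SD, n = 10; 2.12 to 6.67, 335 UMIs), and in oligodendrocytes 3.29 ± 2.77 on 21 UMIs, a difference within the spread (log2 0.32, SE 0.36, adjusted p = 0.625). Abcc8, which encodes its SUR1 partner, was neuronal, with 22.2 ± 4.42 in neurons (SD, n = 10; 14.1 to 27.5) and 0 to 2.27 in the other types. Abcc9 had its highest means in endothelial cells (164 ± 93.9, n = 7) and fibroblasts (99.8 ± 65.5, n = 8) and 1.73 in neurons.

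The classical inward rectifier Kcnj2 had its highest mean in microglia, though on few UMIs. It stood at 21.9 ± 10.5 in microglia (SD, n = 10), from 11.4 in M3 to a median of 20.4 and 44.5 in F4, on 53 UMIs in all. In oligodendrocytes it was 9.86 ± 6.64 (SD, n = 10; 3.85 to 20.7, 57 UMIs), and in neurons 1.43 ± 0.848 (n = 10; 109 UMIs). Every microglia library was above every library of neurons, astrocytes, OPCs and ependymal cells. Endothelial cells and fibroblasts were not set apart in this way. With all libraries together they stood at 12.4 CPM (5.65 to 23.5, exact Poisson 95% interval) and 13.8 CPM (5.56 to 28.5). These intervals overlap that of microglia (19.4, 14.6 to 25.4). Microglia exceeded the mean of the other types by 3.02 (SE 0.32, adjusted p = 8.21e-16; 13.2% of all unfiltered genes were called higher), oligodendrocytes did so by 1.83 (SE 0.32, adjusted p = 5.47e-07; 11.4%), and microglia exceeded oligodendrocytes by 1.05 (SE 0.33, adjusted p = 0.00898; 23.8% called). Kcnj2 was called lower than the mean of the other types in neurons (log2 -1.31, adjusted p = 0.00641; 8.48% of all unfiltered genes were lower), astrocytes (log2 -2.12; 7.36%) and OPCs (log2 -2.92; 5.18%). Among fibroblasts the 7 Kcnj2 UMIs all lay in the nuclei with fewer than 2 mural UMIs, and among endothelial nuclei the 9 all lay in those with 2 or more.

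Kcnj4 was near the detection limit in these nuclei. Neurons had 1.07 ± 0.382 (SD, n = 10; 0.573 to 1.76) on 84 UMIs. No other type held more than 4 UMIs, but the other types were also far less deeply sampled. Mean levels were similar in fibroblasts (1.23, on 1 UMI) and ependymal cells (1.03, on 2 UMIs), and between 0 and 0.381 in the remaining types. Against the mean of all other types Kcnj4 was not called in neurons (log2 1.27, SE 0.53, adjusted p = 0.0606, edgeR without the filter). Of 8 genes known to anchor or traffic Kir2 channels (Dlg1, Dlg2, Dlg3, Dlg4, Lin7a, Lin7c, Cask and Apba1), 5 were called higher and 0 lower in neurons than in glia, where 33.3% and 25.1% of all genes were. Their median log2 fold change was 0.91 against 0.10 over all genes. This was not particular to neurons, since 5 were called higher and 0 lower in OPCs against the other types, where 20.1% of all genes were higher.

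Neurons were then split by 4 regional markers, C1ql3 (used for PVT neurons), Adarb2 (mediodorsal thalamus), Gad2 (GABAergic neurons) and Nwd2 (habenula), to ask whether members vary with region. A neuron joined a group if it held at least 2 UMIs of that marker and its scaled level was at least 2 times that of the next marker, which placed 6786 of 10410 neurons (65.2%). The groups held 4117 (C1ql3), 1617 (Adarb2), 805 (Nwd2) and 247 (Gad2) nuclei, with median depths of 12870, 12988, 7564 and 11281 UMIs. The Gad2 group was mixed, since 121 of its 247 nuclei lay in the deposited cluster where Gad2 leads. The Adarb2 group was mixed to a lesser degree, with 976 of its 1617 nuclei (60.4%) in cluster 3, where Adarb2 leads, 308 in cluster 7 and 204 in cluster 8. In this fit 4 members passed the filter (Kcnj3, Kcnj6, Kcnj9 and Kcnj10).

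**Figure D5:**
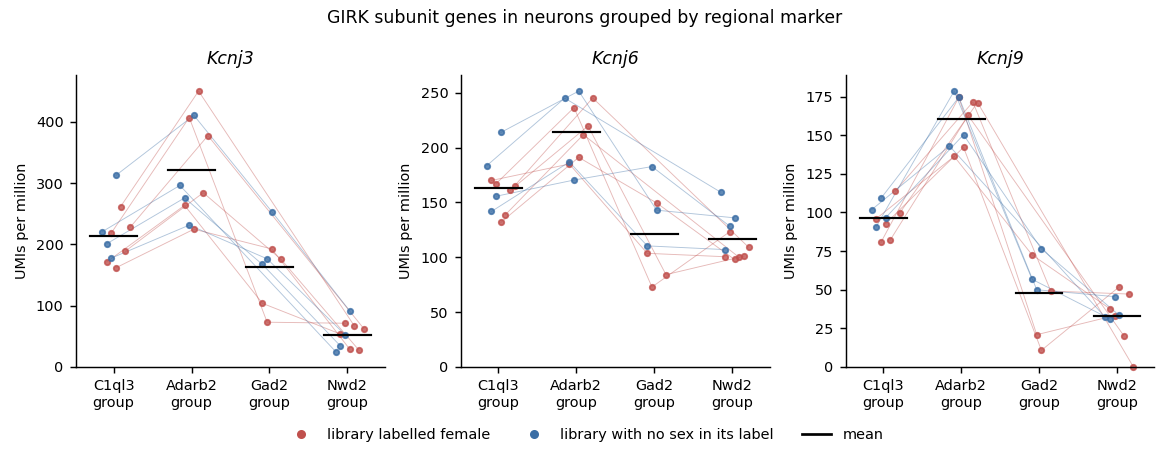
Level (CPM, TMM-scaled) of Kcnj3, Kcnj6 and Kcnj9 in 4 neuron groups set by regional markers, with 1 point per library, thin lines joining points of a library and a thick line at the mean. Kcnj3 falls from 322 in the Adarb2 group to 51.2 in the Nwd2 group, while Kcnj6 falls from 214 to 116.

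The GIRK genes were highest in the Adarb2 group and lowest in the Nwd2 group, but not to the same degree. Kcnj3 was lower in the Nwd2 group than in the mean of the other 3 by 2.16 on the log2 scale (SE 0.13, adjusted p = 1.08e-18) and Kcnj9 by 1.36 (SE 0.12, adjusted p = 7.8e-13), while Kcnj6 was lower by 0.48 (SE 0.09, adjusted p = 1.78e-05), short of the fold required for a call. In the Adarb2 group Kcnj3 was higher by 1.27 (SE 0.09, adjusted p = 1.17e-15), Kcnj9 by 1.40 (SE 0.08, adjusted p = 5.62e-18) and Kcnj6 by 0.56 (SE 0.08, adjusted p = 4.78e-08). The 3 members called higher in the Adarb2 group compare with 13.4% of all genes called higher there, and the 2 called lower in the Nwd2 group with 20.3%. With groups made from the deposited clusters the differences in the Adarb2 group were 1.53 for Kcnj3 and 1.62 for Kcnj9, both called. The Kcnj6 call in the Adarb2 group was lost in M1 to M4 alone (0.38), with groups made from the deposited clusters (0.44) and with nuclei holding exactly 1 of the markers (0.35).

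Kcnj3 stood at 322 ± 81.6 in the Adarb2 group (SD, n = 10; 225 to 450.1), 214 ± 45.9 in the C1ql3 group (n = 10; 162 to 313), 163 ± 59.2 in the Gad2 group (n = 7; 72.8 to 253) and 51.2 ± 22.2 in the Nwd2 group (n = 10). In the Nwd2 group the lowest library was M1 at 24.8, the median 53.0 and the highest M4 at 91.3, which was below every library of the C1ql3 and Adarb2 groups. The C1ql3 and Gad2 groups did not differ (log2 0.10, adjusted p = 0.834), whereas C1ql3 exceeded Nwd2 by 2.00 (SE 0.13, adjusted p = 6.33e-17) and Adarb2 exceeded C1ql3 by 0.57 (SE 0.10, adjusted p = 3.24e-06). The share of nuclei with a Kcnj3 UMI after thinning to 1000 UMIs was 23.0% ± 4.20 in the Adarb2 group, 17.1% ± 2.76 in the C1ql3 group, 16.1% ± 4.02 in the Gad2 group and 4.51% ± 2.08 in the Nwd2 group, and before thinning 83.6%, 74.8%, 63.8% and 20.4%. In the C1ql3 group Kcnj3 exceeded the mean of the others by 0.51 (SE 0.09), just past the fold required. That call was lost under 12 of 23 alternatives, among them RLE scaling (0.47), DESeq2 (0.48) and the omission of F1, F3, M1 or M2 (0.41 to 0.49). In the same group Kcnj10 was called lower, which makes 1 member higher and 1 lower where 12.1% and 6.92% of all genes were.

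Kcnj6 stood at 214 ± 29.6 in the Adarb2 group (SD, n = 10; 170.5 to 252), 163 ± 23.9 in the C1ql3 group (n = 10; 132 to 214), 121 ± 39.2 in the Gad2 group (n = 7; 72.8 to 183) and 116 ± 20.2 in the Nwd2 group (n = 10; 98.0 in F3 to 159.5 in M1). The C1ql3 and Nwd2 groups overlapped between libraries, although in 10 of 10 libraries the C1ql3 group was the higher. Their difference was 0.39 (SE 0.10, adjusted p = 7.35e-04), under the fold required.

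Kcnj9 stood at 160.5 ± 15.96 in the Adarb2 group (SD, n = 10; 136 to 179), 96.3 ± 10.5 in the C1ql3 group (n = 10; 80.6 to 114), 48.0 ± 24.6 in the Gad2 group (n = 7; 10.7 to 76.4) and 33.2 ± 14.9 in the Nwd2 group (n = 10; 0 to 51.9). The 0 belongs to F6, which had 12 nuclei in that group. All 6 pairs of groups were called for Kcnj9, where the pairs called 6.3% (C1ql3 and Gad2), 21.8% (Adarb2 and Gad2), 24.2% (Adarb2 and C1ql3), 32.4% (Gad2 and Nwd2), 40.8% (C1ql3 and Nwd2) and 43.6% (Adarb2 and Nwd2) of all genes. The largest difference was that of Adarb2 against Nwd2 (log2 2.07, SE 0.12) and the smallest that of Gad2 against Nwd2 (0.66, SE 0.19). No Adarb2 library overlapped any library of the other 3 groups.

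The ratio of Kcnj3 to Kcnj6 therefore differed between groups. Its log2 value (1 CPM added to each) was 0.556 ± 0.256 in the Adarb2 group, 0.377 ± 0.247 in the C1ql3 group and 0.396 ± 0.440 in the Gad2 group. In the Nwd2 group it was -1.28 ± 0.678 (-2.64 to -0.57). Since levels are not compared between genes, only the difference of the ratio between groups is read, not its sign. Within libraries the C1ql3 group exceeded the Nwd2 group by 1.65 ± 0.616 in 10 of 10 (two-sided exact sign-flip permutation p = 0.00195, the smallest possible, 0.00352 after Benjamini-Hochberg adjustment over 9 ratios and pairs). The ratio of Kcnj9 to Kcnj6 shifted the same way in 10 of 10 libraries, by 1.43 ± 1.66 (exact permutation p = 0.00195, adjusted 0.00352). Its size rests in part on F6, with 0 Kcnj9 UMIs in its 12 Nwd2 nuclei, and without that library it was 0.92 ± 0.383 in 9 of 9 (exact permutation p = 0.00391, the smallest possible). The shift in Kcnj3 to Kcnj9 was 0.22 ± 1.86, higher in the C1ql3 group in 8 of 10 libraries (exact permutation p = 0.795). Without F6, an omission chosen after the values were seen, it was 0.78 ± 0.629, in 8 of 9 libraries (exact permutation p = 0.00781), so that 1 library decides this value.

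Among the sparser members, Kcnj11 was higher in the Adarb2 group (5.78 ± 1.51, n = 10) than in the mean of the others (log2 2.12, SE 0.32, adjusted p = 3.11e-10; 9.22% of all unfiltered genes were called higher) and lower in the Nwd2 group (log2 -2.48, SE 0.65, adjusted p = 7.02e-04; 11.7% were called lower), where 7 of 10 libraries had 0 UMIs. Its partner Abcc8 moved likewise, by 1.65 in the Adarb2 group and -1.82 in the Nwd2 group. Kcnj4 ran the other way, with 20 UMIs and 2.20 ± 2.23 in the Nwd2 group against 4 UMIs and 0.213 ± 0.405 in the Adarb2 group (Nwd2 against the others 2.38, SE 0.57, adjusted p = 1.77e-04, 11.4% of all unfiltered genes higher). In the Adarb2 group it was lower by 2.08 (SE 0.72, adjusted p = 0.0182, 7.67% lower). Kcnj2 was called in the Adarb2 group alone (log2 2.50, SE 0.54, adjusted p = 2.72e-05), on 43 UMIs. Of these UMIs 22 lay in the 308 nuclei of cluster 7 (5.13 CPM) and 16 in the 976 nuclei of cluster 3 (1.04 CPM).

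Kcnj10 in neurons gave small and unstable differences between groups. It was called higher in the Nwd2 group (log2 0.51, SE 0.20, adjusted p = 0.0256; 19.2% of all genes were higher) and lower in the C1ql3 group (log2 -0.51), on levels of 16.9 ± 9.38 and 12.5 ± 6.98. Of 23 alternatives, 9 lost the first call, among them no filter on low counts (0.49), no block (0.18), the female libraries alone (0.26) and the omission of M1, M3 or M4. The second call was lost in 10 of 23, among them no block (-0.33), the female libraries alone (-0.22), groups from the deposited clusters (-0.50) and the omission of M2 or M3. In the Gad2 group none of the 4 members was called by edgeR, where 10.4% of all genes were, and Kcnj9 had an adjusted p of 0.025 with a log2 fold change of -0.48. The GIRK pathway list was divided in the Nwd2 group, with 4 called higher and 6 lower of 19 tested, where 19.2% and 20.3% of all genes were. Its median log2 fold change there was 0.06 against 0.04 over all genes. In the Adarb2 group 6 were called higher and 5 lower, where 1592 and 1786 of 11914 genes were.

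The 8 deposited neuron clusters are described without a test because any gene could enter their definition. For Kcnj3 they ranged from 36.8 in cluster 6, where Nwd2 leads, to 384 in cluster 3, where Adarb2 leads. Clusters 1, 2 and 4, where C1ql3 leads, lay at 262, 209 and 142, and clusters 7 and 8, with Adarb2 at 342 and 349 CPM against 1765 in cluster 3, at 250.1 and 275. For Kcnj6 the range was 113 in cluster 4 to 234 in cluster 7, with cluster 6 at 129.8, and for Kcnj9 36.9 in cluster 6 to 194 in cluster 3. Kcnj4 was highest in clusters 5 (3.02) and 6 (2.50), Kcnj2 in cluster 7 (5.37) and Kcnj11 in cluster 3 (6.66).

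Other Kir genes were neuronal as well. Kcnj5 (GIRK4) averaged 32.0 ± 9.48 in neurons (SD, n = 10) and at most 4.80 in the other types, and Kcnj12 (Kir2.2) 56.4 ± 9.48 in neurons and at most 13.5 elsewhere. Across the neuron groups Kcnj5 had a pattern of its own, with 34.8 ± 9.43 in the C1ql3 group and 24.2 ± 19.6 in the Gad2 group but 3.58 ± 1.99 in the Adarb2 group and 2.75 ± 2.82 in the Nwd2 group. It was higher than the mean of the other groups by 2.12 (SE 0.14) in the C1ql3 group and lower by 1.98 in the Adarb2 group. Kcnj12 was called higher in the C1ql3 group (0.89) and lower in the Nwd2 group (-1.13). Kcnj13 averaged 24.4 in fibroblasts and 19.4 in neurons, Kcnj14 1.99 in neurons, and Kcnj1 and Kcnj15 gave 12 and 2 UMIs in neurons.

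The 2 sets of libraries were compared within neurons and within astrocytes to see whether levels can be pooled, and there sex, depth and the way genes were counted cannot be told apart. In neurons 1 of the 6 members tested differed, Kcnj10, which was higher in F1 to F6 (log2 1.07, SE 0.30, adjusted p = 0.0283), where 15.2% of all genes differed. The call was lost without F2, F3, F5, F6, M1 or M3. In astrocytes Kcnj3 was lower in F1 to F6 (log2 -1.19, SE 0.31, adjusted p = 0.0192), where 14% of all genes differed, with 92.9 in M1 and 73.5 in M4 against 10.9 to 39.1 in the other 8 libraries. That call was lost without M4 (adjusted p = 0.0725) and without F1 (0.0512). Kcnj6 in astrocytes, which did not pass the filter, was lower in F1 to F6 (log2 -1.20, adjusted p = 0.0348; 13.8% of all unfiltered genes differed). The neuron markers in astrocytes averaged 3.72% of the neuron level in F1 to F6 and 7.68% in M1 to M4, and the part of neuronal RNA in the Kcnj3 and Kcnj6 differences was not tested. In neurons Kcnj3, Kcnj6 and Kcnj9 had log2 differences of 0.11, -0.03 and 0.12 between the sets, none of them called.

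Genes whose level varied most like that of a member were named by Pearson correlation of log2 CPM, a description over 73 sums of library and cell type, which share libraries and depth. For Kcnj3 these were Fam155a (r = 0.90), Cntn4 and Tenm1 (both 0.89), for Kcnj6 Rims1 (0.90), Nrg3os (0.88) and Trpc5 (0.87), and for Kcnj9 Syt13, Bend6 and Nell1 (each 0.82). Kcnj10 was nearest to Pla2g7 (0.84), Hepacam (0.82) and Kank1 (0.81), and Kcnj16 to Pou3f2 (0.84), Gm45025 (0.84) and again Kank1 (0.82). Kcnj8 was nearest to Ndufa4l2 (0.93), Enpep (0.92) and its partner gene Abcc9 (0.90). Over the 37 sums of library and neuron group, Kcnj3 was nearest to Cacna1g (0.96), which encodes a T-type calcium channel, Kcnj6 to Cnksr3 (0.90) and Kcnj9 to Fndc4 (0.93). Kcnj2 (Mbnl1, 0.80), Kcnj11 (Cd247, 0.63) and Kcnj4 (Gm48893, 0.52) had weaker nearest patterns over the cell types.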

How the data were processed

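Nuclei from PVT punches, of pooled mice where the methods describe it, were profiled with droplet 3' chemistry in 10 libraries. The authors deposited raw UMI counts per gene and nucleus with cell type names and the percentage of mitochondrial UMIs per nucleus. Per the submitters' processing notes, reads were aligned with Cell Ranger 6.1.1 to mm10, while the methods name an earlier version, and per the methods nuclei with fewer than 200 genes or over 5% mitochondrial reads, doublets and low-quality clusters had been removed. No further nuclei were removed here and 21 metadata columns were not used.

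Counts were summed per library and cell type, or per library and neuron group, keeping sums of at least 10 nuclei, and fitted with edgeR 4.0.16 quasi-likelihood (R 4.3.3; TMM, filterByExpr, Benjamini-Hochberg over all genes), with library as a block. Libraries tie the types, since deviations of neurons and astrocytes of 1 library correlated (0.767 to 0.917, own library highest in 10 of 10). Comparisons of the 2 sets had no block, and a call there needed an adjusted p below 0.05 only. P-values measure the spread between libraries. The members and lists were chosen with earlier results of these data known. Named genes were the members, the other Kcnj genes, Abcc8 and Abcc9, the extremes of 2 lists and the 3 genes most correlated with each member. Alternatives were DESeq2 1.42.0, RLE scaling, no filter, no block, each set alone, each library left out (for the Kcnj ratios chosen after seeing the data), at least 20 nuclei, genes counted in both sets, at most 1% mitochondrial UMIs, glia summed, and other rules for neuron groups. Ratios, thinned shares and motif searches used Python 3.11.15, numpy 2.4.6, pandas 2.3.3 and scipy 1.17.1. The scripts were tested on simulated counts. Poisson intervals cover counting error only.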

Additional observations from a re-analysis of the deposited data

Results flagged for a closer look

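Among 40 sets of levels with at least 100 UMIs (1 member in 1 cell type or neuron group over 4 to 10 libraries), 3 had a library that stood apart by Dixon's criterion, which chance alone meets in about 1 of 20 sets. Kcnj3 in microglia was highest in M4, at 139.1 CPM, with the next library at 44.7 and a median of 19.1 in the others. Kcnj6 in astrocytes was highest in M4 as well, at 27.68 CPM, with the next library at 15.8 and a median of 7.31 in the others. Kcnj10 in oligodendrocytes was lowest in M1, at 107.0 CPM, with the next library at 186 and a median of 208 in the others. The neuron markers in microglia of M4 and in astrocytes of M4 reached 36.3% and 15.2% of the neuron level of that library, the highest of the 10 libraries in each type, and their part in these levels was not tested.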

How the results depend on the processing

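For 41 fitted calls on members, each recomputed under 14 to 23 alternatives, 727 of 806 values kept their direction and their call, 77 lost the call and 2 changed direction. Of these calls 21 were lost under none of the alternatives run, and 5 more, on Kcnj2, were recomputed under 1 alternative each. Both changes of direction came with nuclei of at most 1% mitochondrial UMIs, for Kcnj6 in oligodendrocytes (0.1215) and in microglia (0.6335). That cut left 1197 of 2462 oligodendrocytes, 446 of 993 microglia and 130 of 473 OPCs, and the numbers of genes called fell to 3140 in neurons, 2689 in astrocytes, 2748 in oligodendrocytes, 776 in OPCs, 2940 in microglia, 1218 in ependymal cells, 473 in endothelial cells and 514 in fibroblasts. Without the filter on low counts 13067 genes were called in neurons, 7194 in astrocytes, 7164 in ependymal cells, 12854 between neurons and glia, 3768 in the C1ql3 group, and 4455 and 3336 between the sets of libraries in neurons and astrocytes. In the libraries without a sex in the label, 1574 genes were called in OPCs, 1947 in endothelial cells and 800.0 in fibroblasts, and with at least 20 nuclei per sum 1643 in endothelial cells. With glia summed 8630 genes differed from neurons. In the Gad2 group 400.0 were called in the female libraries and 2330 with groups from the deposited clusters. The cause of these shifts was not tested, apart from the smaller numbers of nuclei and libraries. The cut at 1% left 611 of the 614 nuclei of M4 in the Adarb2 group. In M1 to M4 it therefore acted on a deposited percentage whose UMIs the counts lack.

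Leaving out 1 library gave 802 (without M3) to 1267 calls in the Gad2 group, 1991 to 3959 (without M2) between the sets in neurons, and 924 to 3008 (without M2) in astrocytes, and stayed within 1.5 times the full count elsewhere. Replicate numbers did not pair libraries across the sets (correlations -0.290 to 0.094 in astrocytes and -0.138 to 0.154 in neurons, own number highest in 0 of 4). With a replicate block 826 genes differed in astrocytes, and Kcnj10 in neurons (0.93, adjusted p = 0.0888, edgeR) and Kcnj3 in astrocytes (-1.19, adjusted p = 0.143, edgeR) were not called. Thinned to 2000 UMIs instead of 1000, shares with a UMI were 29.1% for Kcnj3 in neurons, 27.4% in OPCs, 68.0% for Kcnj10 in astrocytes and 14.4% for Kcnj16 in OPCs, and without thinning 66.5%, 41.3%, 72.5% and 28.9%. Sparse members (Kcnj2, Kcnj4 and Kcnj11) were not refitted with libraries left out.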
